A study of Homo sapiens with 20 samples.

Results

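The ICAM family and the adhesion molecules that work beside it at the contact between an immune cell and its target were chosen by gene symbol. They are ICAM1, ICAM2, ICAM3, ICAM4, ICAM5, VCAM1, CD58, ALCAM and F11R, which makes 9 genes. Of these, 8 have a row among the 36076 genes of the expression table, and the expression of ICAM4 was not analysed here. mRNA-seq was performed in 6 lines of human lung cancer cells (H1299, H1792, PC9, A549, CL1-5 and CL1-0), and Omni-ATAC-seq, which maps open chromatin by transposase cutting, in all of these but H1792 and CL1-0. Each line was given the DNA methyltransferase inhibitor decitabine (DAC) at 100 nM for 72 h. By the study's methods it was then grown without drug for at least 3 days. Mock cells of the same line received PBS. There is 1 library per line and treatment, so the lines are the replicates, and within a single line a difference has no replicate check.

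ICAMs and VCAM1 are immunoglobulin superfamily proteins of the cell surface that serve as ligands of leukocyte integrins. ICAM1 binds LFA-1 and Mac-1, VCAM1 binds the integrin VLA-4, and CD58 binds CD2 on T and NK cells. By holding the immune cell against its target, these bonds let an immune synapse form, and ICAM1 transcription is a textbook target of NF-kB and interferon-gamma signalling.

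ICAM1, ICAM3, ICAM4 and ICAM5 lie near each other on chromosome 19. In GRCh37, ICAM1 runs from 10381769 to 10397291 on the plus strand, ICAM4 from 10397631 to 10399198 and ICAM5 from 10400628 to 10407454 on the same strand, and ICAM3 from 10444452 to 10450337 on the minus strand. ICAM2 lies on chromosome 17 (62079954 to 62097994, minus strand). VCAM1 (101185298 to 101204601, plus strand), CD58 (117057156 to 117113661, minus strand) and F11R (160965001 to 160991133, minus strand) lie on chromosome 1, and ALCAM on chromosome 3 (105085753 to 105295744, plus strand).

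Promoter sequences of RefSeq (GRCh38.p14) were matched for 7 of the 9 genes. ICAM2 and F11R had none. The 250 bases before the start are shown for ICAM1, because ATAC peaks reached this window in some libraries, for its neighbour ICAM5, which had a promoter peak in every library, and for VCAM1, which had none. They are followed by the 155 bp upstream of ICAM1 that were common to the peaks of 6 ATAC libraries. Capitals mark CpG dinucleotides, the bases at which DNA methylation is placed.
ICAM1, chr19:10270870-10271119 (GRCh38.p14, plus strand): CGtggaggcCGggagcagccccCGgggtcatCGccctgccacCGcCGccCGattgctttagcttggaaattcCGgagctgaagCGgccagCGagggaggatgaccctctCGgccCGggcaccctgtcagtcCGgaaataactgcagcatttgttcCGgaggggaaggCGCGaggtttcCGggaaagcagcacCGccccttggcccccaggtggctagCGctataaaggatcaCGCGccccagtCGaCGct
ICAM5, chr19:10289702-10289951 (GRCh38.p14, plus strand): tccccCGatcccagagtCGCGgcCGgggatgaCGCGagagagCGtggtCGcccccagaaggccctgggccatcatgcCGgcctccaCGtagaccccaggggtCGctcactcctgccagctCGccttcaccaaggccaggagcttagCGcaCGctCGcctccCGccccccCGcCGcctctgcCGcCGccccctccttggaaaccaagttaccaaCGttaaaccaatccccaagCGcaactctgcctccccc
VCAM1, chr1:100719492-100719741 (GRCh38.p14, plus strand): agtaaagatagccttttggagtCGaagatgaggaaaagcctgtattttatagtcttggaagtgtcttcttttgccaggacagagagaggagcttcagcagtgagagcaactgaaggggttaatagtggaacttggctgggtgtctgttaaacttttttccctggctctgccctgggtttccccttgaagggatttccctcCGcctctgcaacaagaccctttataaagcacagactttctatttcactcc
ICAM1 upstream stretch, chr19:10380257-10380411 (GRCh37, plus strand): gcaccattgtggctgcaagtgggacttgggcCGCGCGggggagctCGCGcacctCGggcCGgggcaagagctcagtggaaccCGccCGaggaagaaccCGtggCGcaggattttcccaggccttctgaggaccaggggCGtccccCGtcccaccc

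The ICAM1 window holds 23 CpG sites, more than 74.2% of the 35116 promoter windows of the same length, whose median is 11. It matches GRCh37 positions 10381546 to 10381795 of chromosome 19 exactly. CD58 had the most CpG sites among the genes matched (31, more than 89.1% of windows), and ICAM5 (22) and ALCAM (20) were also above the median. VCAM1 had only 2, and 14.7% of all windows had fewer. The upstream stretch of ICAM1 holds 13 CpG sites in 155 bp. Both strands of each window were searched for GGAANTTCC and GGGANTTCC (NF-kB), a pair of GAAA strings 2 bases apart (IRF), TGANTCA (AP-1), TATAAA and GGGCGG. In ICAM1, GGAANTTCC was matched at -186 to -178 and TATAAA at -30 to -25 from the start, and these strings are held by 0.826% and 10.7% of all windows. In VCAM1, GGGANTTCC was matched at -62 to -54 and the IRF pair at -15 to -6 on the minus strand, strings held by 1.59% and 3.02% of all windows. TATAAA had 3 matches in VCAM1. GGGCGG, found in 42.6% of all windows, had 2 matches each in ICAM1 and ICAM5, and the ICAM5 window held none of the NF-kB or IRF strings. These matches describe letters in a window and do not show that a factor binds there.

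Expression is given as FPKM, a read level scaled to gene length and library depth. Some libraries stand apart from the others. Without H1299, between 22234485 and 25303899 reads per mRNA-seq library were counted on genes. In H1299 the totals were 59735913 (Mock) and 52634234 (DAC), and 85.5% and 81.9% of their values from 1 to 20 reads are even numbers, against 39.2% to 41.5% elsewhere, so their reads are not independent counts. The peak lists of the ATAC libraries labelled CL1-5 carry PC9 in their file names, and those labelled PC9 carry CL1-5. Of 138 genes expressed in PC9 Mock mRNA (FPKM of at least 5) and silent in CL1-5 (under 0.1), a peak at the promoter was listed for 95.7% in Mock cells labelled CL1-5 and for 53.6% in those labelled PC9. Of 79 genes with the reverse pattern, the shares were 63.3% under the label CL1-5 and 88.6% under the label PC9. The ATAC libraries are called by their labels below, and results that rest on these 2 lines are also given with the labels exchanged.

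Markers of other cell types varied between the cultures. PTPRC, which encodes the pan-leukocyte surface protein CD45, had at most 18 reads in any library, the T cell gene CD3E at most 2 and the endothelial gene EMCN at most 4. Other markers of these lists were expressed: LAPTM5 was at 29.7 FPKM in Mock H1792 and 20.4 in Mock PC9, and the fibroblast markers COL1A1 and LUM were at 68.6 and 25.9 in Mock H1792. The summed level of 6 epithelial markers was 0.986 FPKM in Mock CL1-0, against 112 or more in the other lines, and the keratin genes KRT8 and KRT18 were at 0.154 and 0.118 there and at 24.6 or more elsewhere. EPCAM and CDH1 did not set CL1-0 apart, at 0.151 and 0.562 FPKM in Mock against 0.132 and 0.478 in CL1-5 and 0.0555 and 0.0113 in H1299.

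ICAM1 was the member with the largest mean log2 difference after DAC, although VCAM1 differed more in H1792. In A549 it was listed at 0.0252 FPKM in Mock (2 reads, within the floor of 3 reads below which a gene was treated as undetected) and at 3.88 after DAC (364 reads). It went from 0.0800 to 0.984 FPKM in CL1-0, from 3.20 to 17.6 in CL1-5 and from 8.13 to 30.9 in PC9. It went from 1.76 to 18.2 FPKM in H1299 and from 5.38 to 27.6 in H1792. ICAM1 was higher after DAC in 6 of 6 lines, but the Mock and DAC groups overlap, since Mock PC9 lies above DAC A549 and DAC CL1-0.

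**Figure D1:**
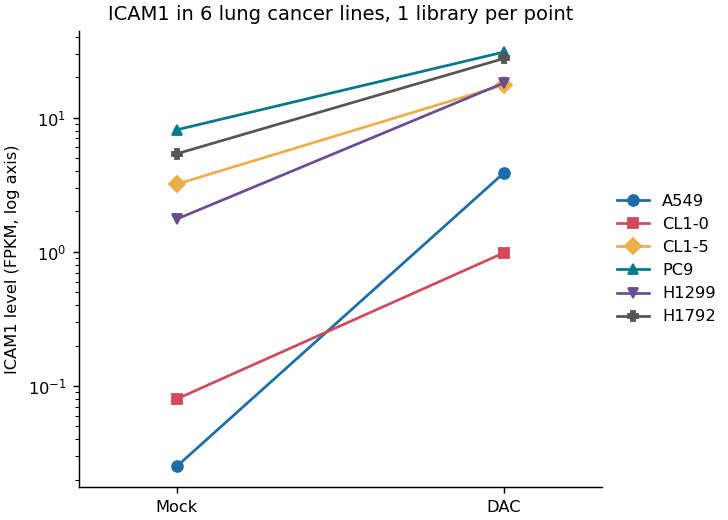
ICAM1 level in FPKM on a log axis in the Mock and DAC libraries of 6 lung cancer lines, with 1 library per point and lines joining the libraries of a cell line. All 6 lines slope upward, from 0.0252 to 3.88 FPKM in A549 and from 8.13 to 30.9 in PC9.

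As ratios within a line, ICAM1 was 154-fold higher in A549, with a counting interval of 42.4 to 1278 that reflects the 2 Mock reads. The ratio was 12.3 in CL1-0 (95% counting interval 5.77 to 31.3), 10.4 in H1299, 5.51 in CL1-5, 5.14 in H1792 and 3.80 in PC9 (3.48 to 4.15). These intervals cover counting error only, and that of H1299 is not given because its reads are mostly even. The lines with the lowest Mock levels, A549 and CL1-0, remained the lowest after DAC. On the log2(FPKM + 0.1) scale, the changes ran from 1.91 in PC9 to 4.99 in A549, with a mean of 2.93 ± 1.11 (SD, n = 6 lines). An exact two-sided sign-flip permutation test over the 6 lines gave p = 0.031, the smallest it can give. In each line the ICAM1 change exceeded that of most genes past the line's filter, from 94.96% of them in PC9 to 99.6% in A549. In A549 and CL1-0, ICAM1 reached that filter through the DAC library alone and could only be higher. In the other lines the share ran from 94.96% in PC9 to 98.6% in H1299.

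Across all genes, limma was fitted to the lines other than H1792, which the study left out of its main mRNA-seq comparison. ICAM1 had a log2 fold change of 3.04 (SE 0.41, 95% interval 2.08 to 4.01) and ranked 36 of 22603 genes by p, but its Benjamini-Hochberg adjusted p of 0.0719 in limma missed the threshold of 0.05. With H1792 in the fit, ICAM1 passed, with a log2 fold change of 2.93 (SE 0.36) and an adjusted p of 0.0264 in limma. In the 5-line fit 27 genes were higher (0.119% of those tested) and 0 were lower (0%), against 1825 higher (8.07%) and 994 lower (4.4%) at an unadjusted p under 0.05. With 6 lines 0.232% of the genes tested were called higher. Adjusted p-values of ICAM1 over the alternatives ran from 0.0264 to 1.00, and it also passed with a filter at a mean FPKM of 1 (0.0458) and with voom on the recovered reads (0.0340). The voom weights are set from the reads, and those of H1299 are not independent counts. In bulk RNA, more RNA per cell and more cells that express a gene cannot be told apart.

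Summed levels of leukocyte, fibroblast and endothelial marker genes were also mostly higher after DAC. The summed level of 9 leukocyte markers ran from 0.361 to 30.2 FPKM in Mock and from 0.893 to 56.6 after DAC and was higher in 6 of 6 lines. LAPTM5, a lysosomal membrane protein gene of leukocytes, made up most of it in PC9 and H1792, at up to 54.9 FPKM after DAC, while PTPRC and CD3E stayed at the reads given above. The summed level of 6 fibroblast markers was higher in 6 of 6 lines as well, from 0.279 to 102 FPKM in Mock and from 1.79 to 155 after DAC, and that of 6 endothelial markers ran from 0 to 1.33 in Mock and from 0.310 to 2.79 after DAC, with CL1-0 as the 1 line where it was lower. The sum of 5 mesenchymal markers was lower after DAC in A549, CL1-0, CL1-5 and H1299 and higher in PC9 and H1792. That of 6 epithelial markers was lower in A549, CL1-5 and PC9 and higher in CL1-0, H1299 and H1792. The part of these markers in the ICAM1 result was not tested.

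ICAM2, a ligand of LFA-1 best known from endothelial cells and platelets, was low in most lines. It was at 0 reads in Mock A549, CL1-5 and H1299 and at 2 reads in Mock CL1-0. After DAC, these lines had 40 reads (0.488 FPKM), 7 reads (0.0889), 14 reads (0.0817) and 9 reads (0.0937). Against the floor of 3 reads per library, this is at least 11.3-fold higher in A549, 5.05-fold in H1299, with its mostly even reads taken as listed, and 2.60-fold in CL1-5. The DAC reads are taken as counted, so counting error in the 7 reads of CL1-5 is not covered. ICAM2 was clearly expressed in Mock only in PC9 (2.02 FPKM, 2.64 after DAC) and H1792 (1.57, 1.63 after DAC), where its ratios were 1.31 (1.05 to 1.64) and 1.04 (0.808 to 1.34). It was higher in 6 of 6 lines, with the same exact sign-flip p of 0.031. A549, CL1-5 and H1299, at 0 reads in Mock, could not be lower, so this count and p were partly fixed in advance. In the 5-line fit, the log2 fold change of 1.06 (SE 0.35) had an adjusted p of 0.316 in limma.

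ICAM3, the ICAM of resting leukocytes, was at 1 read or none in Mock and at 4 reads or fewer after DAC in 5 lines. PC9 is the exception, with 0 reads in Mock and 18 after DAC (0.264 FPKM), at least 5.39-fold higher. It was not tested in the 5-line fit, because its mean FPKM was under 0.1.

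ICAM5, which encodes the telencephalin of neurons, was expressed at 0.227 to 5.11 FPKM in Mock and 0.334 to 6.67 after DAC. It was highest in CL1-0, where ICAM1 was lowest after DAC, and lowest in A549, where ICAM1 was lowest in Mock. ICAM5 went from 0.751 to 1.67 FPKM in PC9 (ratio 2.22, 1.64 to 3.04) and from 3.51 to 2.75 in CL1-5 (ratio 0.783, 0.666 to 0.920). It was higher in 4 lines and lower in 2, and the log2 fold change of 0.39 (SE 0.21) had an adjusted p of 0.466 in limma. ICAM5 starts 3337 bp beyond the end of ICAM1, and the 95% interval of the ICAM5 log2 fold change, -0.10 to 0.87, lies below that of ICAM1.

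VCAM1, the cytokine-inducible ligand of VLA-4, was at 4 reads or fewer in all 6 Mock libraries. After DAC it was at 4.19 FPKM in H1792 (608 reads, against 2 in Mock), 0.407 in H1299 (130 reads, against 4) and 0.209 in A549 (32 reads, against 0). CL1-0 had 3 reads after DAC, CL1-5 had 1 and PC9 had 0, which is no more than the floor. The ratio was 314 in H1792 (counting interval 86.6 to 2601) and 35.2 in H1299, and A549 was at least 9.04-fold higher. VCAM1 did not reach the filter of the 5-line fit. In the fit with H1792 its log2 fold change was 1.55 (SE 0.66), with an adjusted p of 0.414 in limma. The exact sign-flip p over the 6 lines was 0.0625, with 1 line at no difference. This p cannot test direction, because with 4 reads or fewer in Mock no line could be clearly lower. CL1-0 and CL1-5 count as higher in it although their reads lie within the floor.

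**Figure D2:**
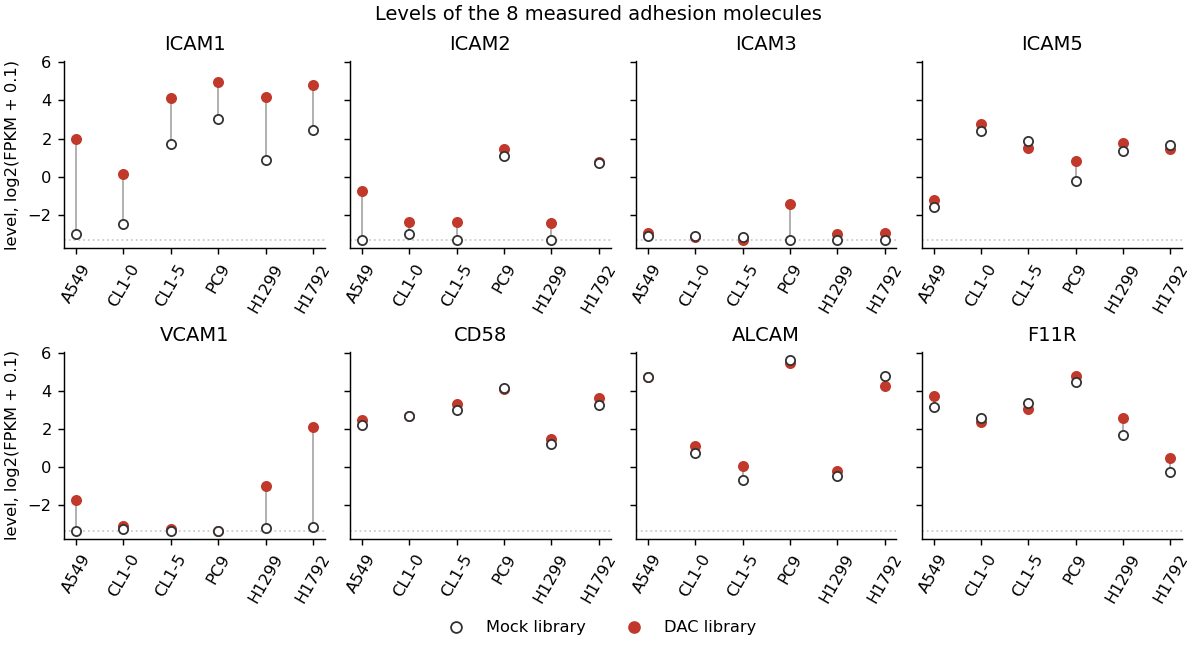
Levels as log2(FPKM + 0.1) of the 8 measured members in 6 lines, with open circles for Mock and filled circles for DAC libraries. The dotted line marks 0 FPKM. ICAM1 shows the widest gaps in all lines but H1792, where VCAM1 has the widest, and the circles of CD58, ALCAM and F11R lie close together.

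CD58, ALCAM and F11R were expressed in every library. CD58 ran from 2.22 (H1299) to 17.7 FPKM (PC9) in Mock and from 2.74 to 16.99 after DAC in the same lines. Its changes lay between -0.06 and 0.41 on the log2 scale, and the 5-line log2 fold change was 0.15 (SE 0.11, adjusted p of 0.598 in limma). Its interval of -0.12 to 0.41 leaves out a 2-fold change in either direction.

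ALCAM, which encodes the CD6 ligand CD166, differed widely between lines. In Mock it was at 49.2 FPKM in PC9, 27.8 in H1792 and 26.8 in A549, and at 1.58 in CL1-0, 0.619 in H1299 and 0.540 in CL1-5. The lines fall into a high and a low set of 3 that were still apart after DAC, with 19.3 FPKM or more and 2.09 or less after DAC. Of the high lines, ALCAM was lower in PC9 (ratio 0.906, 0.877 to 0.936) and H1792 (0.696, 0.666 to 0.728). In A549 the ratio of 0.987 had a counting interval of 0.946 to 1.03, which includes no change. ALCAM was higher in all 3 low lines (1.32, 1.78 and 1.25 in CL1-0, CL1-5 and H1299). The sets were named by the Mock levels that also enter these ratios, and the difference in direction was not tested. The 5-line log2 fold change was 0.25 (SE 0.16, adjusted p of 0.528 in limma).

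F11R, which encodes the tight junction protein JAM-A, another ligand of LFA-1, ran from 0.740 FPKM in H1792 to 22.3 in PC9 in Mock and from 1.32 to 27.5 after DAC. It was higher in 4 lines, with the largest ratio in H1299 (3.13 to 5.94 FPKM), and lower in CL1-0 and CL1-5. The 5-line log2 fold change was 0.26 (SE 0.19, adjusted p of 0.585 in limma). F11R also had an exact sign-flip p of 0.1875 over the 6 lines, against 0.12 for CD58, 0.53125 for ALCAM and 0.21875 for ICAM5. In all, 6 of the 9 members were tested in the 5-line fit and 0 passed its adjusted threshold. At an unadjusted p under 0.05 in limma, ICAM1 (0.000115) and ICAM2 (0.0168) were higher, where 8.07% of all genes were higher and 4.4% lower. ICAM2 was at 0 reads in Mock A549, CL1-5 and H1299.

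**Figure D3:**
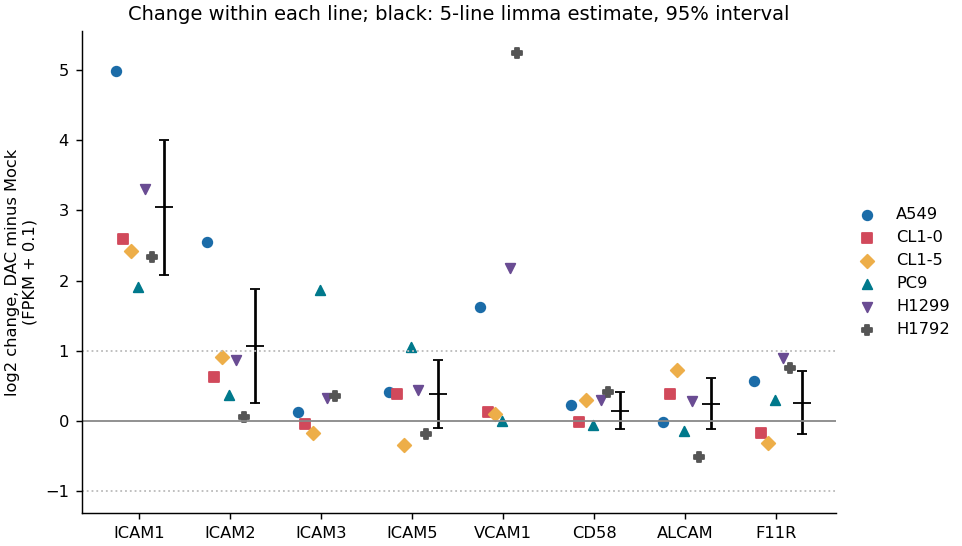
Log2 change of FPKM + 0.1, DAC minus Mock, of 8 members in each of 6 lines (coloured markers), with the 5-line limma estimate and its 95% interval in black for the 6 genes tested. Dotted lines mark 2-fold. ICAM1 lies above 2-fold in 6 of 6 lines, and the intervals of ICAM5, CD58, ALCAM and F11R cross 0.

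Within a line, 2-fold differences on the log2(FPKM + 0.1) scale were counted without a test. In A549 ICAM1, ICAM2 and VCAM1 were at least 2-fold higher, where 18.1% of all genes were higher and 7.37% lower. In CL1-0 and CL1-5, ICAM1 alone was, where 9.32% and 8.35% of genes were higher and 2.79% and 6.45% lower. In PC9 ICAM1, ICAM3 and ICAM5 were higher, against 12.3% of genes higher and 3.99% lower. ICAM1 and VCAM1 were higher in H1299, against 12.9% of genes higher and 4.71% lower. The same genes were higher in H1792, against 12.9% of genes higher and 7.46% lower. Members under 0.1 FPKM in Mock reached the filter through the DAC library alone and could only be higher, which holds for ICAM1 in A549 and CL1-0, ICAM2 in A549, ICAM3 in PC9 and VCAM1 in A549, H1299 and H1792. The others are ICAM1 in the remaining 4 lines and ICAM5 in PC9. No member was 2-fold lower in any of the 6 lines. ICAM1 is the only member that was 2-fold higher in all 6 lines, and with a pseudocount of 1 the sum over lines was 6 in place of 12.

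ICAM1 made up a larger share of the members' RNA after DAC in 6 of 6 lines. FPKM is a level per length, so levels can be set side by side between genes. ICAM1 held 0.0620% of the summed FPKM of the 8 members in Mock A549 and 7.75% after DAC. Its share went from 0.419% to 4.59% in CL1-0, from 12.5% to 44.6% in CL1-5 and from 8.13% to 24.8% in PC9. It went from 17.3% to 57.8% in H1299 and from 11.2% to 39.8% in H1792. No Mock library had ICAM1 as its highest member, which was ALCAM in A549, PC9 and H1792, F11R in CL1-5 and H1299 and CD58 in CL1-0. After DAC, ICAM1 was the highest in CL1-5, H1299 and H1792, and ALCAM in A549 and PC9. In CL1-0 the highest was then ICAM5 (6.67 FPKM), close to CD58 (6.38).

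**Figure D4:**
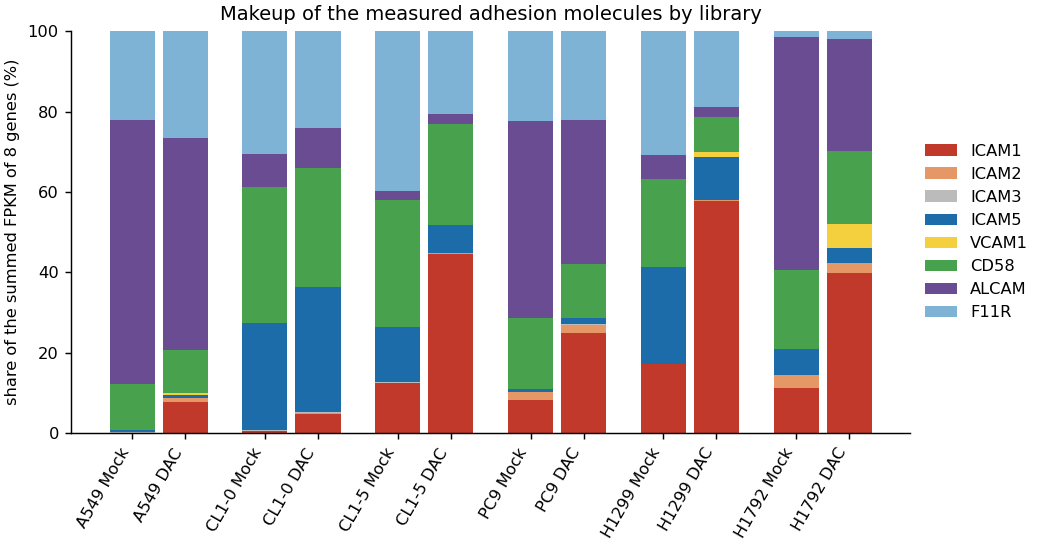
Share of each of 8 members in their summed FPKM (%), by library, with Mock and DAC of a line side by side. The ICAM1 segment is larger after DAC in 6 of 6 lines and reaches 57.8% in H1299.

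The genes whose log2 levels followed ICAM1 most closely over the 12 libraries, of 13363 genes at 1 FPKM or more on average, were RBM7 (Pearson r = 0.92), ENG (0.91), PANX1 (0.90), RAB42 (0.90) and PLAT (0.87). These 12 points share 6 lines and 2 treatments, and RBM7 itself changed little (-0.03 to 0.47 on the log2 scale). By the change over the 6 lines, the closest were BMP2 (r = 0.99), DUBR (0.99), HCFC2 (0.99), SNORD101 (0.99) and TMEM139 (0.99), with 6 points of which A549 lies farthest out. Among the members, the change of ICAM2 had the highest correlation with that of ICAM1 (r = 0.93), while VCAM1 (0.09), ICAM5 (0.03) and ALCAM (0.01) did not track it. The ICAM2 value leans on A549, the far point for both genes. ICAM2 changed by 2.55 there from 0 Mock reads, against 0.06 to 0.92 in the other lines.

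Receptors on the leukocyte side were present as RNA in part. Of 11 such genes, of which CD2, ITGAL and ITGB2 also stand among the leukocyte markers, 5 were tested in the 5-line fit and 0 passed, with 2 higher and 0 lower at an unadjusted p under 0.05, where 8.07% of all genes were higher and 4.4% lower. Their median log2 fold change was 0.40, against 0.07 over all genes. ITGB2, the beta chain of LFA-1 and Mac-1, had the highest value (1.43, SE 0.30, adjusted p of 0.181 in limma) but was at 0.586 FPKM or less in Mock and 3.39 or less after DAC. ITGAX had the lowest (0.06, SE 0.35, adjusted p of 0.957 in limma), and ITGB1, a chain of VLA-4, was the most abundant, at 88.3 FPKM or more in every library. CD2, the receptor of CD58, had at most 6 reads.

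The linkers that tie adhesion molecules to actin were near no change. All 10 were tested and 0 passed, with 0 higher and 0 lower also at an unadjusted p under 0.05 and a median log2 fold change of 0.00 (0.001), against 0.07 over all genes. EZR, which encodes the ICAM-binding linker ezrin, had the highest value (0.22, SE 0.19, adjusted p of 0.638 in limma) and MSN (moesin) the lowest (-0.14, SE 0.14, adjusted p of 0.667 in limma).

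Of 18 NF-kB regulators and targets tested, 0 passed, and 7 were higher and 0 lower at an unadjusted p under 0.05, against 8.07% and 4.4% of all genes, with a median of 0.47. CCL20, a chemokine gene, had the highest log2 fold change (1.98, SE 0.62, adjusted p of 0.302 in limma) and RELA, the p65 subunit, the lowest (-0.05, SE 0.10, adjusted p of 0.857 in limma). Of 11 genes of the interferon-gamma axis tested, 0 passed and 3 were higher and 0 lower unadjusted, with a median of 0.68. CXCL10 had the highest value (1.89, SE 0.88, adjusted p of 0.427 in limma) and was listed at 0 in all 6 Mock libraries, with 7.53 FPKM in CL1-5 after DAC. IFNGR1, a chain of the receptor, had the lowest (0.07, SE 0.10, adjusted p of 0.771 in limma).

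Among 18 other immunoglobulin superfamily adhesion genes tested, 0 passed in the 5-line fit and 5 were higher and 0 lower unadjusted, against 8.07% and 4.4% of all genes, with a median of 0.21. MCAM, which encodes CD146, had the highest log2 fold change (2.23, SE 0.31, adjusted p of 0.0776 in limma), and with H1792 it passed (2.14, SE 0.28, adjusted p of 0.0282 in limma). MCAM was higher in 6 of 6 lines, like ICAM1, and its Mock levels ran from 0.0114 to 23.1 FPKM. BCAM had the lowest value (-0.45, SE 0.23, adjusted p of 0.450 in limma). Of 5 sheddases, proteases that cut adhesion molecules from the surface, 0 passed and 0 were higher or lower unadjusted, with a median of 0.23. MMP9 had the highest value (0.96, SE 0.42, adjusted p of 0.408 in limma) and ELANE the lowest (-0.34, SE 0.32, adjusted p of 0.655 in limma).

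The marker lists had no gene past the adjusted threshold either. The median log2 fold change was 0.68 over 6 epithelial markers (1 higher unadjusted), from EPCAM (1.69, SE 0.54) to CDH1 (0.31, SE 0.21). It was 0.61 over 3 endothelial (1 higher), from VWF (1.91, SE 0.42) to ERG (-0.04, SE 0.29), and 1.06 over 4 leukocyte markers (3 higher), from LAPTM5 (2.19, SE 0.45) to CD14 (0.38, SE 0.28). It was 1.10 over 4 fibroblast markers (3 higher), from PDGFRB (1.38, SE 0.37) to COL3A1 (0.51, SE 0.33), and 0.05 over 5 mesenchymal markers (0 higher), from CDH2 (0.27, SE 0.15) to VIM (-0.16, SE 0.28). None of these lists had a gene lower at an unadjusted p under 0.05, where 8.07% of all genes were higher and 4.4% lower.

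Genes that overlap ICAM1 had few reads. LIMASI, a long noncoding RNA gene on the minus strand from 10362944 to 10395784 of chromosome 19, had at most 1 read in any library. ICAM4-AS1, also on the minus strand (10396477 to 10399695), overlaps the end of ICAM1 and had at most 5 reads. Whether counting used strand is not given in the sources used here, but at most 5 reads were assigned to either gene while ICAM1 had up to 3560. Within 10 kb of ICAM5, ZGLP1 was at 0.0650 to 0.480 FPKM with a mean change of 0.05 over the 6 lines, and ENSG00000167807 had at most 2 reads.

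The accessibility of the members was read from broad peak lists called per library by the authors, with 45354 to 97584 peaks each and more in DAC than in Mock in 4 of 4 lines. A promoter peak is one listed for the gene within 3000 bp of its TSS. CD58, ALCAM, F11R and ICAM5 had one in all 8 lists, ICAM1 in 7 and ICAM2 in 5. VCAM1, ICAM3 and ICAM4 had none. A peak is listed for a single gene here. Counted from transcript starts of the reference annotation, where a peak can serve several genes, ICAM3 and ICAM4 had one in at least 1 list and VCAM1 still had none. The nearest peak listed for VCAM1 lay at -5635 bp from its TSS, in Mock cells labelled CL1-5. No peak was listed for VCAM1 in Mock or DAC cells of H1299, where its RNA went from 4 to 130 reads.

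At ICAM1, distances are given from base 10381796 of chromosome 19 (GRCh37), the start of the RefSeq transcript. The peak lists measure from a TSS further upstream, from which base 10381796 lies 279 bp into the gene. In Mock A549, where ICAM1 RNA was at 2 reads, a peak lay from -1743 to -1138 (fold enrichment 3.94 over background, -log10 q of 2.99). After DAC, with 364 reads, no peak was listed for ICAM1 in A549. In Mock H1299 a peak lay from -1539 to -1277 (3.37-fold, -log10 q of 3.08), with a further one at -9471 to -9199 (2.77-fold, -log10 q of 1.68). After DAC H1299 had a peak from -1910 to -1385 (3.21-fold, -log10 q of 4.86), one that begins at the start itself and runs to 673 (2.33-fold, -log10 q of 1.47), and one in exon 2 (2.34-fold, -log10 q of 1.18). A peak at the RefSeq start of ICAM1 was thus listed in H1299 only after DAC. That list held 63541 peaks against 45354 in Mock, and the q of the peak did not reach 0.01. None was listed at this start in A549.

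The library labelled CL1-5 had 1 wide peak in Mock, from -1549 to 393 (4.14-fold, -log10 q of 9.64), and after DAC a peak from -294 to 888 (4.03-fold, -log10 q of 9.26) that no longer covered the upstream stretch. A peak in intron 2 was listed in both, at 5762 to 6113 in Mock (4.38-fold) and 5800 to 6132 after DAC (2.96-fold). The peaks listed for ICAM4, at 11537 to 12750 in Mock and 12023 to 12332 after DAC, also lie within the ICAM1 gene and were found in no other library. The library labelled PC9 had a peak from -1590 to -2 in Mock (3.70-fold, -log10 q of 3.26). After DAC it had one from -1585 to -1115 (3.17-fold, -log10 q of 2.67) and one from -196 to 678 (3.13-fold, -log10 q of 2.56). With the labels exchanged, these peaks change places between CL1-5 and PC9, and in either case the start of ICAM1 was within or beside a peak in Mock and DAC.

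**Figure D5:**
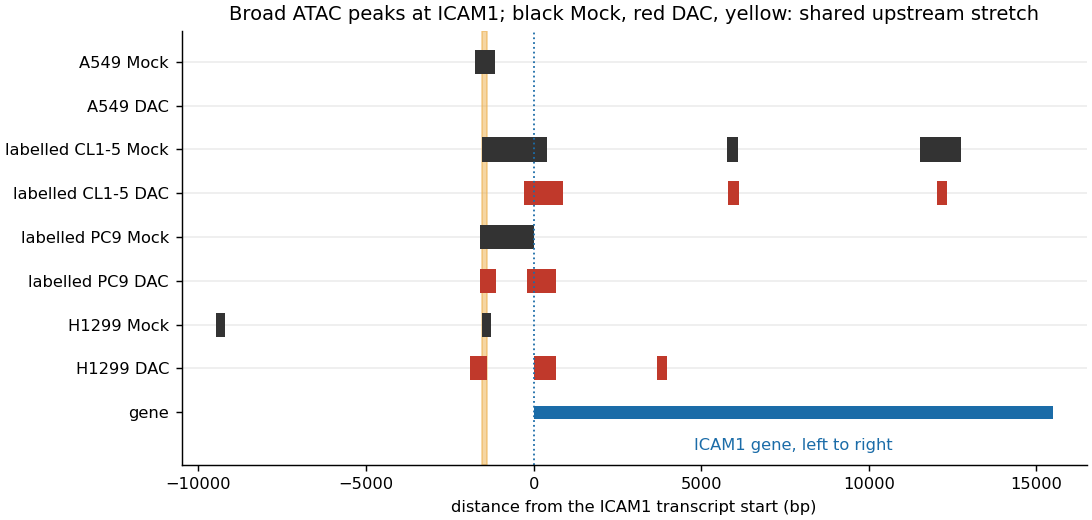
Broad ATAC peaks within 10 kb before and over the ICAM1 gene, by distance from its transcript start in bp, for Mock (black) and DAC (red) libraries. The yellow band marks the 155 bp common to the upstream peaks of 6 libraries. A549 after DAC has no peak, and H1299 has one at the start in the longer DAC list only, with a -log10 q of 1.47.

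Fold enrichment depends on a library's depth, so a gene's strongest promoter peak was placed on a scale of percentiles within its own list, over the 19052 genes with such a peak in at least 1 list. ICAM1 was at the 35.3 percentile in Mock A549 and, without a peak, at the tied lowest rank of 9.32 after DAC. It went from 38.8 to 40.1 in H1299, from 44.01 to 51.8 in the library labelled CL1-5 and from 34.7 to 30.3 in that labelled PC9. After DAC under the label CL1-5, the strongest peak was the one at the start. In H1299, and after DAC under the label PC9, ICAM1 was ranked by its upstream peak instead. Its mean change was -5.28 ± 14.6 percentile points (SD, n = 4 lines), with an exact two-sided sign-flip permutation p of 0.75, and 4 lines cannot give a p under 0.12. Without A549 the mean was 1.60. Exchanging the labels leaves the mean and p as they are and gives -4.36 to CL1-5 and 7.77 to PC9. The median change over all 19052 genes lay between -2.01 points (H1299) and -0.77 points (labelled CL1-5). By peak width in place of fold enrichment, the mean ICAM1 change was -21.3 points, with 3 of 4 lines lower. In a 1000 bp window it was -7.84 points, again with 3 of 4 lines lower, and H1299 was at -10.7.

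Promoter peaks of CD58, ALCAM and F11R were stronger than that of ICAM1. CD58 ranked from 63.4 to 97.0, ALCAM from 62.8 to 96.5 and F11R from 69.3 to 92.7 over the 8 lists, all above ICAM1 in each list. ICAM5 ranked from 20.2 to 45.4. ALCAM had a promoter peak of 5.72-fold in Mock H1299, where its RNA was at 0.619 FPKM, and of 10.2-fold in Mock A549, where it was at 26.8. The mean changes were 8.403 ± 10.5 for ALCAM, 7.52 ± 13.1 for CD58, -1.01 ± 6.29 for ICAM5 and -1.04 ± 6.15 for F11R (SD, n = 4 lines), with exact sign-flip p-values of 0.375, 0.375, 0.875 and 0.875. ICAM2 had a promoter peak in Mock but not after DAC in A549, and after DAC but not in Mock in H1299 and in the library labelled PC9. The library labelled CL1-5 had one in both. With the labels exchanged, ICAM2 had a promoter peak in both libraries of PC9 and only after DAC in CL1-5. Its mean change was 3.05 ± 16.3 (SD, n = 4 lines), with an exact sign-flip p of 1. Over all 19052 genes, 8.98% had a listed promoter peak only after DAC and 4.38% only in Mock in A549, against 8.51% and 4.31% in H1299.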

How the data were processed

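Mock and DAC libraries were grouped by the labels' titles, with 1 per line and treatment in each assay. The members and gene lists were chosen with earlier results of these data known.

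For mRNA-seq, the authors aligned reads to hg19 with RSEM and bowtie2 by their methods (the submitters' processing notes also name TopHat2 2.1.1), counted them with GenomicAlignments and deposited FPKM values normalized with DESeq2 1.24.0. The authors also deposited a mean normalized signal per gene, used here to recover reads, and their own log2 fold change, test score and p-values, which were not used. For Omni-ATAC-seq, the authors aligned with BWA, removed duplicates with Picard and called broad peaks per library with MACS2 2.2.5. Each deposited list gives a peak score, a fold enrichment ratio and −log10 p and q, annotated with ChIPseeker 1.20.0. The depth of each ATAC library is unknown.

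Whole reads were recovered from FPKM, and 100% of values came out whole within 0.01 of a read. Genes averaging 0.1 FPKM or more over 10 libraries (5 lines) were fitted on the log2(FPKM + 0.1) scale by limma 3.58.1 (R 4.3.3), blocked by line, with an intensity trend and Benjamini-Hochberg adjustment over all genes at 0.05. A fold change on this scale understates that of low genes. Mock and DAC libraries were paired by cell line, and their deviations correlated at 0.731 to 0.900 within a line and at most 0.115 between lines. The fit was tested on simulated data. Within a line, genes averaging 0.1 FPKM or more over its pair of libraries were counted. Exact two-sided sign-flip tests (Python 3.11.15, numpy 2.4.6) were run for 8 members in mRNA-seq and 6 in ATAC-seq and not adjusted. P-values measure the spread between lines. Up to 3 reads counted as undetected, and 95% counting intervals cover counting error only. Folds given as at least a value set the DAC reads, as counted, against 3 reads in Mock and leave out the counting error of the DAC reads.

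Gene positions and the ICAM1 upstream stretch come from GRCh37, in which 0 peaks ran past a chromosome's end. Promoters come from RefSeq (GRCh38.p14). Coordinates were not converted, and the ICAM1 window was placed in GRCh37 by an exact match of its sequence. A further string searched in the promoters is not reported here.

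Named genes were the 9 members, the 5 genes most like ICAM1 by level and by change, of each list the highest and lowest gene tested and any past the threshold, and annotated genes within 10 kb of ICAM1, ICAM4 or ICAM5. PTPRC, CD3E, EMCN, COL1A1, LUM, KRT8, KRT18, ITGB1 and CD2 were named after their values were seen. Alternatives were H1792 included, no replicate block, pseudocounts of 0.01 and 1, other filters, TPM, quantile normalization, no trend, voom on recovered reads and each line left out. For peaks they were a q under 0.01, equal peak numbers in Mock and DAC, a 1000 bp window, reference transcript starts, ranking by width, exchanged labels and each line left out.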

Additional observations from a re-analysis of the deposited data

Results flagged for a closer look

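In 42 groups of 4 to 6 values, 4 values lay farther from the rest of their group than Dixon's 95% limit, where chance alone sets apart about 1 in 20 groups. The log2 change of ICAM2 in A549 was 2.55, against 0.06 to 0.92 in the other 5 lines, from 0 reads in Mock to 40 after DAC. ICAM3 after DAC was at -1.46 in PC9 on the log2(FPKM + 0.1) scale, against -3.32 to -2.96 in the other lines, and its change in PC9 was 1.86, against -0.17 to 0.36. Both ICAM3 values rest on the same 18 reads. The promoter peak percentile of ICAM5 after DAC was 45.4 in H1299, against 20.2 to 23.1 in the other 3 libraries.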

How the results depend on the processing

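Of the alternatives, 12 of 15 left the log2 fold change of ICAM1 on the same side of the threshold. It was called with H1792 included (2.93), with a mean FPKM of at least 1 (3.04) and with voom on recovered reads (2.96), so that 1 member passed in each of these against 0 in the 5-line fit. The voom call takes the mostly even reads of H1299 as listed. Leaving out 1 line at a time gave log2 fold changes of 2.56 to 3.33 with adjusted p-values of 0.0841 to 0.235 in limma, and 0 members passed. Without the replicate block, the log2 fold change of ICAM1 stayed at 3.04 with an adjusted p of 1.00 in limma. No alternative turned the direction of ICAM1, ICAM2, ICAM5, CD58, ALCAM or F11R in RNA or called any of the latter 5. Over the alternatives the log2 fold change ran from 1.98 to 3.60 for ICAM1, 0.23 (pseudocount of 1) to 2.81 (0.01) for ICAM2, 0.21 to 0.57 for ICAM5, 0.11 to 0.27 for CD58, 0.12 to 0.37 for ALCAM (0.12 with H1792) and 0.10 (without H1299) to 0.40 for F11R. ICAM2 fell under the filter, and so had no value, at a mean FPKM of 1 and without PC9. The number of genes called was 27 in the 5-line fit, 53 with H1792, 10 without the replicate block, 0 with a pseudocount of 1, 2 without the filter, 17 with quantile normalization, 6 without the trend and 179 with voom, and 0 to 23 with 1 line left out (0 without A549 or CL1-5, 5 without CL1-0, 12 without PC9 and 23 without H1299). Where 0 were called, unadjusted calls were 1411 higher and 982 lower (pseudocount of 1), 1206 and 595 (without A549) and 1664 and 1007 (without CL1-5). Unadjusted calls were 1825 higher and 994 lower in the 5-line fit, 2496 and 532 as TPM and 1130 and 1668 after quantile normalization, with medians over all genes of 0.07, 0.17 and -0.04. Members 2-fold higher within a line numbered 12, and 6 with a pseudocount of 1. The cause of these differences was not tested.

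For the promoter peaks, the mean percentile change of ICAM1 ran from -9.63 to 1.60 with 1 line left out, turning upward without A549 (1.60). The mean change of ICAM1 was -21.3 by width, -8.56 with reference transcript starts and -7.84 in a 1000 bp window. That of ICAM2 (3.05) turned to -5.01 at a q under 0.01 and to -1.17 in a 1000 bp window, and ran from -1.33 to 9.88 with 1 line left out. That of ICAM5 (-1.01) turned to 0.27 at a q under 0.01 and to 6.27 by width, and ran from -4.00 to 0.68. By width, CD58 turned to -8.16 and ALCAM to -13.6, and F11R ran from -2.82 to 1.60 with 1 line left out. None of these p-values can pass 0.05 with 4 lines. With 1 library per line and treatment and no ATAC depth, a difference within 1 line has no replicate check.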
